A study of Homo sapiens with 8 samples.

Results

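SETBP1 encodes a large nuclear protein that binds the SET oncoprotein. It was examined together with SET, with the core subunits of protein phosphatase 2A (PP2A) and with 2 further genes of the same axis, ANP32A and MECOM. The 8 genes were chosen by symbol: SETBP1 because it had 0 counts in the knockout libraries, and the other 7 because they encode its binding partner, the phosphatase that this partner inhibits, or factors tied to either. All 8 were present among the 57996 gene symbols counted and among the 16233 genes tested. The libraries came from HAP1, a near-haploid human cell line of chronic myelogenous leukaemia origin. Unmodified HAP1 cells formed one group and clone 11, a single line with a knockout of BCDIN3D, the other. The labels give the genotype under a tag for shRNA status, while its values and the titles name a wild-type and a knockout, so which kind of reagent was used is unclear. No drug treatment is named. Cells of both groups grew for 48 h in IMDM with 10% FBS and PSQ, and the total RNA had an integrity number of 10. Each group had 2 RNA-seq libraries and 2 small RNA libraries from the same RNA, dated 6 May for replicate 1 and 9 May for replicate 2. The replicates are called biological, without mention of separate thaws, so each p-value speaks only of the spread among these libraries, which may be technical. With 1 clone, the loss of BCDIN3D and other differences of the clone cannot be told apart. In these bulk libraries fewer cells of a type and less RNA per cell cannot be told apart either.

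PP2A is a serine/threonine phosphatase built from a catalytic C subunit, a scaffolding A subunit and 1 of many exchangeable B subunits that direct it to its substrates. The SET protein and ANP32A are acidic nuclear proteins that inhibit PP2A, and both also act as histone chaperones. SETBP1 protein binds SET and shields it from proteolytic cleavage, which keeps PP2A activity low. In myeloid leukaemia, raised SETBP1 or SET is a known route to low PP2A activity, and the transcription factor encoded by MECOM (EVI1) has been reported to activate SETBP1.

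RefSeq (GRCh38.p14) lists 2 start sites for SETBP1, whose windows from 250 bases before to 50 after the start are shown because the transcript was absent from the knockout libraries. They are read on the plus strand, 5′ to 3′, with CG dinucleotides, the sites of DNA methylation, in capitals.
SETBP1 start 1, chr18:44680638-44680937: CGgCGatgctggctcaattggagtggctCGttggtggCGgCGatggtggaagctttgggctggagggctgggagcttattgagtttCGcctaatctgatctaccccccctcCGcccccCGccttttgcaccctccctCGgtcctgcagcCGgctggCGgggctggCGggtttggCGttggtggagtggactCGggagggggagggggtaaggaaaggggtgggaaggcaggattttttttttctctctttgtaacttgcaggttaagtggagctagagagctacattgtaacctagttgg
SETBP1 start 2, chr18:44700625-44700924: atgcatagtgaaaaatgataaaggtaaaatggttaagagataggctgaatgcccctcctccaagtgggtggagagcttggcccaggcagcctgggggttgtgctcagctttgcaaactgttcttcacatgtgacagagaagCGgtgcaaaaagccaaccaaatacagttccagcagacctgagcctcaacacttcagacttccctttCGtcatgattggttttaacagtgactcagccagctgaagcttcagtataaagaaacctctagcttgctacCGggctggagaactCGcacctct
The first window holds 14 CG dinucleotides, equal to the median of 14 over all 35116 RefSeq promoter windows of the same length, and 59.0% G and C. The second holds 4, and 75.5% of all windows hold as many or more. Searched on both strands, CCAAT was found in both windows (34.6% of all windows hold it), GGGCGG only in the first (45.0%) and TATAAA only in the second (11.5%). The letters GATAAG and GATGAG, the cores of the sequences that the zinc fingers of the MECOM protein bind, were in neither window, against 6.36% and 12.0% of all windows. The motifs were searched separately, and matches of different motifs may overlap. A gene count does not show from which start the wild-type reads came, and these letters say nothing about binding.

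The RNA-seq libraries held 20065041 to 24415272 counts each. Levels are given as CPM, the count relative to the TMM-scaled library size, and 3 counts, the limit that a count of 0 allows, are 0.121 to 0.151 CPM. Replicates of wild-type differed by a median of 0.11 on the log2 scale over the tested genes and replicates of knockout by 0.12. Knockout replicate 2 lay farther from the wild-type libraries (0.16 and 0.14) than knockout replicate 1 did (0.12 from each), and values without it are given beside the results that it changes. The targeted gene BCDIN3D stood at 7.40 and 4.90 CPM in wild-type and at 1.56 and 2.71 CPM in knockout, a log2 fold change of -1.52 ± 0.24 (SE; edgeR adjusted p = 2.06e-05), so reads of the targeted gene were fewer but not absent. Of 8 blood cell markers, 7 had at most 4 counts in any library, including PTPRC and CD33, so defining blood markers were at or near 0 in both groups of this leukaemia-derived line. KIT, the highest of the list, was counted at 10.8 and 11.0 CPM in wild-type and at 0.804 and 1.41 CPM in knockout, so the summed blood markers were at 10.9 and 11.6 against 0.899 and 1.51 CPM. Among 5 fibroblast markers DCN and LUM had 0 counts and COL1A1 was highest, with sums of 8.41 and 10.0 against 7.28 and 8.40 CPM. Among 5 epithelial markers KRT18 was highest, and the sums were 77.8 and 69.2 against 58.2 and 50.3 CPM. Of these markers 3 of 3 tested genes were called lower, against 3.5% of all tested genes. The part of the blood and epithelial markers in the results below was not tested.

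SETBP1 (gene ID 26040, chromosome 18, 44680073 to 45068510) was counted in wild-type cells and absent from the counts of the knockout clone. Wild-type replicates 1 and 2 held 104 and 151 counts, or 5.00 and 6.12 CPM, and knockout replicates 1 and 2 held 0 and 0. At the wild-type rate of 5.60 CPM the knockout libraries would have given 119 and 111 counts. The drop was at least 76.7-fold, taking 3 counts over the 2 knockout libraries as the floor. These values chose the gene and are a description. The floors cover counting error only. Of the 16233 tested genes 24 had 0 counts in both knockout libraries, and none of the 24 had more wild-type counts than SETBP1. No tested gene had 0 counts in both wild-type libraries.

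The 5 tested genes with the pattern nearest to that of SETBP1, by Euclidean distance of log2(CPM + 0.5) over the 4 RNA-seq libraries, lay on other chromosomes. GTF2H2, a subunit gene of TFIIH with near-identical copies, was nearest at a distance of 0.40, with 109 and 114 against 1 and 0 counts (wild-type against knockout). PTPRN2, which encodes a protein of secretory granules, followed at 0.61 with 141 and 209 against 1 and 0 counts. The ephrin receptor gene EPHA6 (0.66) had 91 and 108 against 2 and 3 counts. The progesterone receptor gene PGR (0.84) had 80 and 90 against 2 and 2, and the zinc finger gene ZNF793 (0.87) had 59 and 111 against 0 and 2. That each of these was lower in every knockout library than in any wild-type library follows from how they were chosen.

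**Figure D1:**
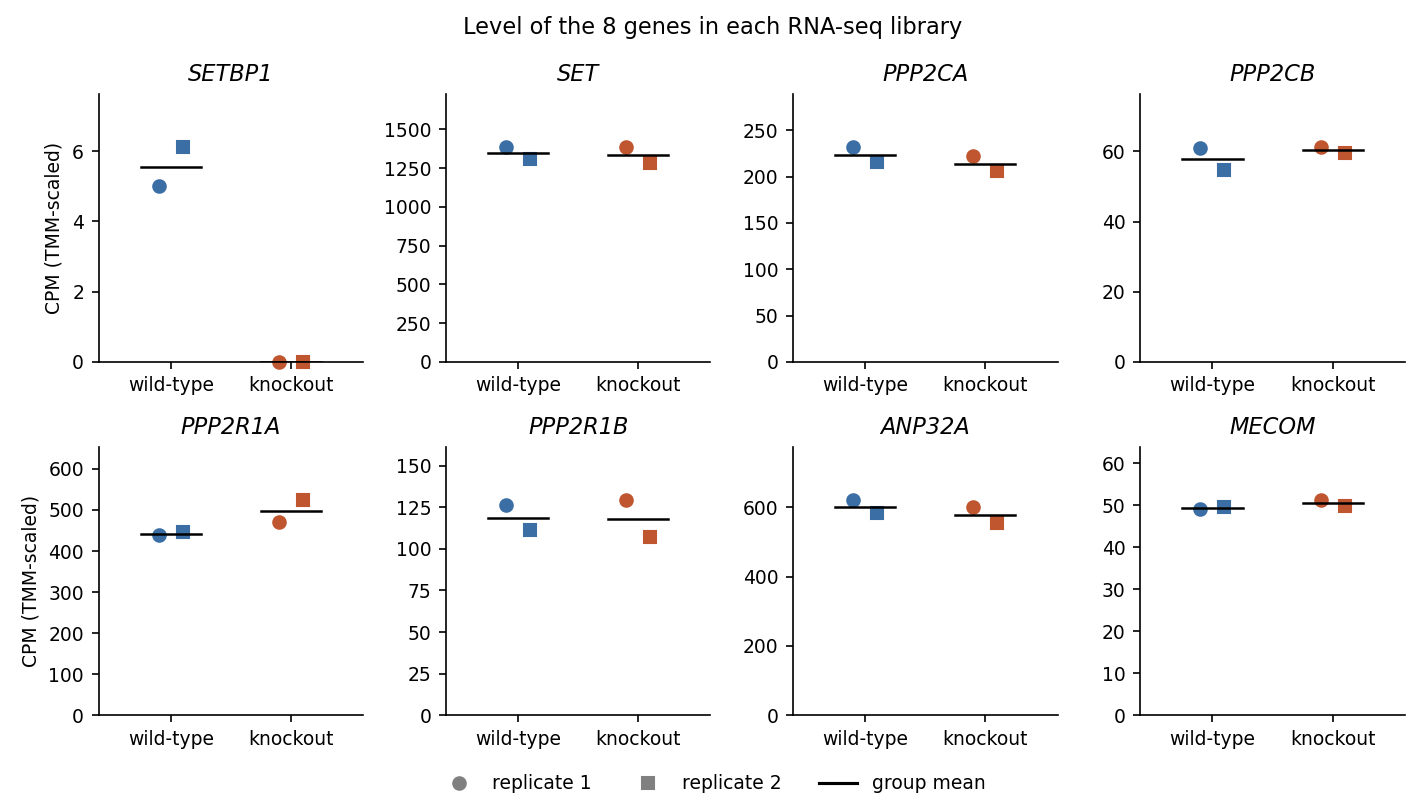
CPM (vertical axes, each from 0) of the 8 genes in the 4 RNA-seq libraries; circles are replicate 1, squares replicate 2 and bars group means. SETBP1 is at 0 in both knockout libraries, while PPP2R1A and MECOM are the other genes whose groups do not overlap.

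SET, which encodes the PP2A inhibitor that SETBP1 binds, stayed close to its wild-type level. SET (chromosome 9, 128683424 to 128696396) stood at 1385 and 1311 CPM in wild-type and at 1384 and 1280 CPM in knockout. Replicate 2 was the lower library in both groups, and the groups overlapped. The log2 fold change was -0.02 ± 0.05 (SE), a change of -1.21% with a 95% interval from -8.40% to 6.55% (edgeR's quasi-likelihood test, Benjamini-Hochberg adjusted p = 0.934). The ratio of knockout to wild-type was 0.00 on the log2 scale at the first date and -0.04 at the second. Under the 9 alternative settings its log2 fold change lay between -0.07 and 0.04, so its sign was not stable.

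Processed copies of SET took few reads. Of 19 copies with a SETP symbol 5 had 0 counts in all 4 libraries, and the 19 together held 73 and 80 counts in the wild-type libraries against 77 and 81. That was 0.253% and 0.247% of the SET count in wild-type and 0.263% and 0.318% in knockout. SETP14 held most of them, with 55 and 58 against 63 and 63 counts. Reads that fit both SET and a copy may have been split or dropped, so the SET level is uncertain to that extent. SET overlaps DYNC2I2 (WDR34 in the files) in the RefSeq table, and the strand setting of the counting is not given in the sources used here. That gene had 3314 and 4027 wild-type counts against 3789 and 3750 (log2 fold change 0.19 ± 0.06, adjusted p = 0.0537).

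ANP32A, the other PP2A inhibitor among the 8 genes, was not called either. ANP32A (chromosome 15, 68778535 to 68820895) was at 619 and 584 CPM in wild-type and 601 and 554 CPM in knockout, with overlapping groups and the lower value in replicate 2 of each. Its log2 fold change was -0.06 ± 0.06 (adjusted p = 0.690), which is -4.09% with a 95% interval of -11.4% to 3.78%. The within-date values were -0.04 and -0.08.

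The catalytic subunits of PP2A are encoded by PPP2CA and PPP2CB, whose proteins are nearly identical. PPP2CA (chromosome 5, 134194332 to 134226073) was at 232 and 215 CPM in wild-type and at 222 and 206 CPM in knockout. The groups overlapped, and the log2 fold change was -0.06 ± 0.06 (adjusted p = 0.712, 95% interval -12.1% to 4.39%). PPP2CB (chromosome 8, 30785616 to 30812818) was at 61.0 and 54.7 CPM in wild-type and 61.2 and 59.6 CPM in knockout, again overlapping (0.06 ± 0.08, adjusted p = 0.784, interval -6.46% to 16.7%). Of the reads on this pair, PPP2CA took 79.2% and 79.7% in wild-type (Wilson 95% intervals, counting error only, 78.1% to 80.2% and 78.7% to 80.7%). In knockout it took 78.4% and 77.5% (77.4% to 79.4% and 76.4% to 78.6%). The knockout mean of 78.0% ± 0.614 (SD, n = 2) lay 1.47 points below the wild-type mean of 79.4% ± 0.401 (difference -1.47). The groups did not overlap, but 2 against 2 libraries cannot give an exact two-sided permutation p below 0.333. These shares compare a pair of genes within a library and not their levels, because transcript lengths were not used here.

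Of the scaffolding subunit genes, PPP2R1A was slightly higher in knockout and missed the threshold. PPP2R1A (chromosome 19, 52190052 to 52229518) encodes the predominant A subunit. It stood at 438 and 445 CPM in wild-type and at 471 and 523 CPM in knockout. Every knockout library was above every wild-type library, and knockout replicate 2 was highest. The log2 fold change was 0.17 ± 0.06, or 12.6% with a 95% interval of 3.93% to 22.0%, and its adjusted p was 0.0639. Blocking on the date gave an adjusted p of 0.0107, and the within-date values were 0.11 and 0.23. Knockout replicate 2 sets much of the size: without knockout replicate 1 the log2 fold change was 0.25 (adjusted p = 0.00134) and without knockout replicate 2 it was 0.09 (adjusted p = 0.604).

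PPP2R1B (chromosome 11, 111688000 to 111766389), the gene of the minor A subunit, was at 126 and 111 CPM in wild-type and 129 and 107 CPM in knockout. The groups overlapped, with replicate 1 the higher library in both. The log2 fold change was -0.01 ± 0.08 (adjusted p = 0.982, 95% interval -0.17 to 0.15 on the log2 scale). Its span overlaps that of the kinase gene SIK2 in the RefSeq table, which was at 0.15 ± 0.08 (adjusted p = 0.397). PPP2R1A took 77.6% and 80.0% of the reads on the pair in wild-type and 78.5% and 83.0% in knockout, with overlapping groups and the knockout library higher on both dates.

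MECOM (chromosome 3, 169083507 to 169663712) was expressed at nearly the same level in both groups. Its wild-type libraries held 1021 and 1221 counts (49.1 and 49.4 CPM) and its knockout libraries 1081 and 991 (51.1 and 49.8 CPM). The lowest knockout library was just above the highest wild-type library. The log2 fold change was 0.04 ± 0.08 (adjusted p = 0.908), with a 95% interval from -8.48% to 14.7%. MECOM has several RefSeq starts, 1 of which holds GATAAG in its window, and gene counts do not tell its isoforms apart.

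Of the 7 genes other than SETBP1, edgeR called 0, and so did DESeq2. At an unadjusted p under 0.05 there was 1, PPP2R1A, against 16.7% of all tested genes. Over all tested genes 6.56% were called, 3.06% higher and 3.5% lower. Blocking on the date called 1 of the 7, PPP2R1A, against 9.55% of all tested genes. Groups did not overlap for 2 of the 7, both with knockout higher, and for 45.3% of all tested genes (23.5% with knockout higher and 21.8% with knockout lower). The median log2 fold change of the 7 was -0.01, beside 0.00 over all tested genes, whose quartiles were -0.12 and 0.11.

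**Figure D2:**
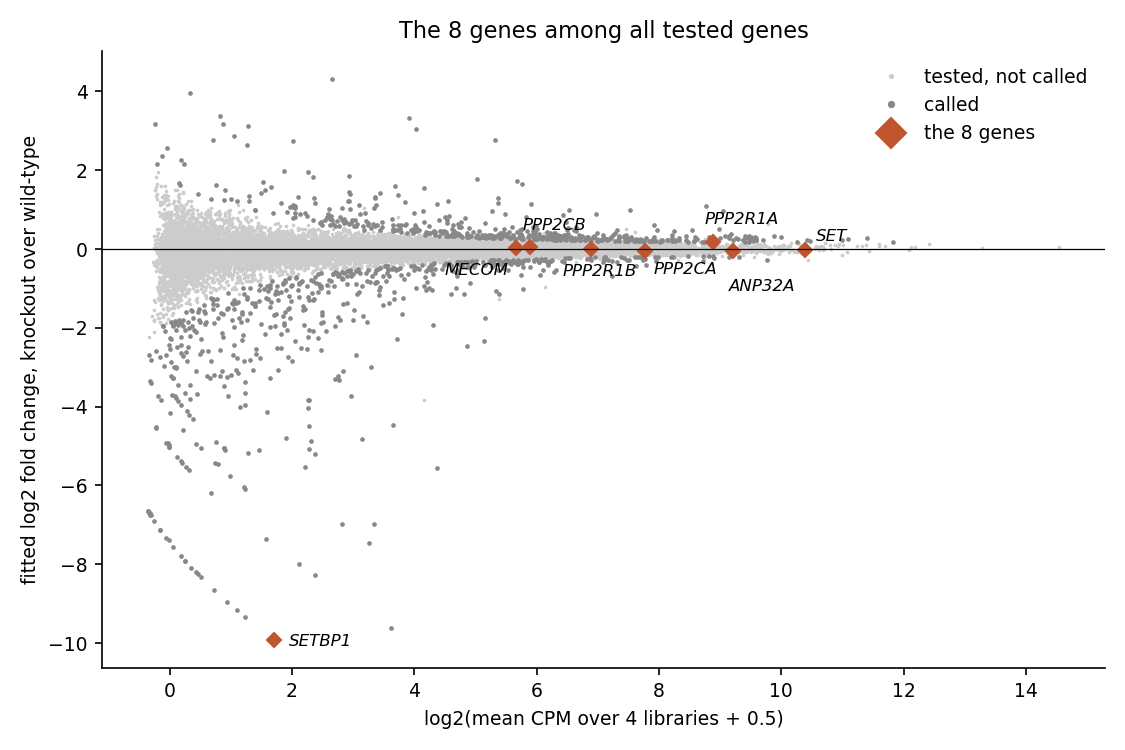
Fitted log2 fold change (knockout over wild-type) against log2(mean CPM over 4 libraries + 0.5) for all tested genes; grey points are tested genes, darker where called, and diamonds are the 8 genes. SETBP1 lies on the lower edge, where the fitted value of genes with 0 knockout counts depends on the prior count, and the other 7 lie between -0.06 and 0.17.

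The wider pathway was followed in 10 gene lists with 77 tested genes. Of these 3 were higher and 2 lower in knockout, which is 6.49% against 6.56% of all tested genes, and groups did not overlap for 38 of the 77 (49.4%). The median log2 fold change was 0.00. At an unadjusted p under 0.05 there were 18 (23.4%, against 16.7% of all tested genes). Blocking on the date gave 5 higher and 5 lower (13.0% against 9.55%), and DESeq2 gave 0 and 1 (1.30% against 2.85%). The 5 called genes were PPP2R2B, PPP4R4, PRDM16, ANP32E and ANP32B. In that order their log2 fold changes were 0.48, 0.42, 0.73, -0.30 and -0.31 with all libraries. Without knockout replicate 2 they were 0.50, 0.36, 0.64, -0.18 and -0.20. How each call fared without that library is given with the gene below.

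Of 15 regulatory subunit genes of PP2A, 1 was higher and 0 were lower, against 3.06% and 3.5% of all tested genes. Their median log2 fold change was 0.04. The called gene was PPP2R2B, which encodes the brain-enriched beta member of the B55 class. It stood at 12.7 and 8.46 CPM in wild-type and 14.9 and 14.4 CPM in knockout (0.48 ± 0.15, adjusted p = 0.0398). Both knockout libraries were above both wild-type libraries, but wild-type replicate 2 was well below wild-type replicate 1. The within-date values were 0.23 and 0.77. Without wild-type replicate 2 the log2 fold change shrank to 0.21 (adjusted p = 0.695), and without wild-type replicate 1 it grew to 0.79. Elsewhere the call ended at a fold change of similar size: 0.46 without knockout replicate 1 (adjusted p = 0.0710), 0.50 without knockout replicate 2 (0.0560), 0.45 with library size scaling (0.0648) and 0.47 with DESeq2 (0.454). Blocking on the date called a further gene higher, the striatin gene STRN4 (0.19 ± 0.08, blocked adjusted p = 0.0310), chosen after its values were seen. Without knockout replicate 1 STRN4 was at 0.34 (adjusted p = 0.000574) and without knockout replicate 2 at 0.03 (adjusted p = 0.948). The remaining B55, B56, B″ and striatin genes lay between -0.15 and 0.16.

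Both called list genes that fell, ANP32E and ANP32B, are relatives of ANP32A, and no SET/NAP gene was called. Among 14 genes of the SET/NAP and ANP32 families 11 were tested, 0 were higher and 2 were lower (18.2%, against 3.5% of all tested genes), with a median log2 fold change of -0.08. ANP32E encodes a chaperone that removes the histone variant H2A.Z from chromatin. It was at 275 and 272 CPM in wild-type and at 241 and 202 CPM in knockout, with no overlap and knockout replicate 2 lowest (-0.30 ± 0.07, adjusted p = 0.00141). Its within-date values were -0.19 and -0.43. It was the only list gene also called by DESeq2 (adjusted p = 0.00737), and without knockout replicate 2 the call was lost (-0.18, adjusted p = 0.115). ANP32B, another acidic histone chaperone, was at 55.9 and 56.7 CPM in wild-type and 49.1 and 41.9 CPM in knockout (-0.31 ± 0.08, adjusted p = 0.0142). Its within-date values were -0.19 and -0.44. Without knockout replicate 2 it was at -0.20 (adjusted p = 0.365). The call also ended, at a similar fold change, with DESeq2 (-0.31, adjusted p = 0.146), without wild-type replicate 1 (-0.32, adjusted p = 0.0782) and without wild-type replicate 2 (-0.29, adjusted p = 0.148). With the date as a block 4 genes of this list were lower, adding NAP1L2 (-0.46 ± 0.15, blocked adjusted p = 0.0350) and TSPYL2 (-0.28 ± 0.10, blocked adjusted p = 0.0383). Both were chosen after their values were seen. NAP1L1, chosen likewise, was lower without knockout replicate 1 (-0.18, adjusted p = 0.0329) and stood at 0.02 without knockout replicate 2. The 3 untested genes, ANP32C, ANP32D and TSPYL5, had at most 6 counts in any library.

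ANP32E lies on chromosome 1 (150218417 to 150236112), in a stretch where many genes were slightly lower. Past position 125 Mb of that chromosome 610 genes were tested, of which 56 were lower and 8 higher. Over all 16233 tested genes 568 (3.5%) were lower and 497 (3.06%) higher. The median log2 fold change was -0.09 in the stretch and 0.00 over all tested genes. The list genes PPP2R5A (-0.15 ± 0.09), ENSA (-0.07 ± 0.06) and TIPRL (-0.06 ± 0.07) lie in the same stretch, each with a negative log2 fold change and none of them called. This grouping was made after the values were seen. The part of the stretch in the ANP32E value was not tested.

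Among 10 genes of the PP2A-like phosphatases PP4 and PP6, 1 was higher and 0 were lower, against 3.06% and 3.5% of all tested genes. PPP4R4, a regulatory subunit gene of PP4, was at 14.7 and 15.5 CPM in wild-type and 19.3 and 21.2 CPM in knockout (0.42 ± 0.12, adjusted p = 0.0145). Both knockout libraries were above wild-type, and the within-date values were close, 0.40 and 0.45. The call ended, at fold changes of similar size, with DESeq2 (0.42, adjusted p = 0.226), without knockout replicate 2 (0.36, adjusted p = 0.187), without wild-type replicate 1 (0.38, adjusted p = 0.166) and without wild-type replicate 2 (0.46, adjusted p = 0.0615). The catalytic subunit genes PPP4C (0.10 ± 0.06) and PPP6C (-0.02 ± 0.07) were not called.

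Among 5 relatives, partners and reported targets of MECOM, 1 was higher and 0 were lower, against 3.06% and 3.5% of all tested genes. PRDM16, the paralog of MECOM, was at 4.23 and 4.50 CPM in wild-type and at 6.81 and 7.74 CPM in knockout (0.73 ± 0.18, adjusted p = 0.00608). The groups were well apart, and the within-date values were 0.69 and 0.78. The call ended, at fold changes of similar size, with DESeq2 (0.73, adjusted p = 0.193), without knockout replicate 2 (0.64, adjusted p = 0.122) and without wild-type replicate 1 (0.69, adjusted p = 0.0549). GATA2, a reported target of the MECOM protein, was at 0.03 ± 0.09.

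**Figure D3:**
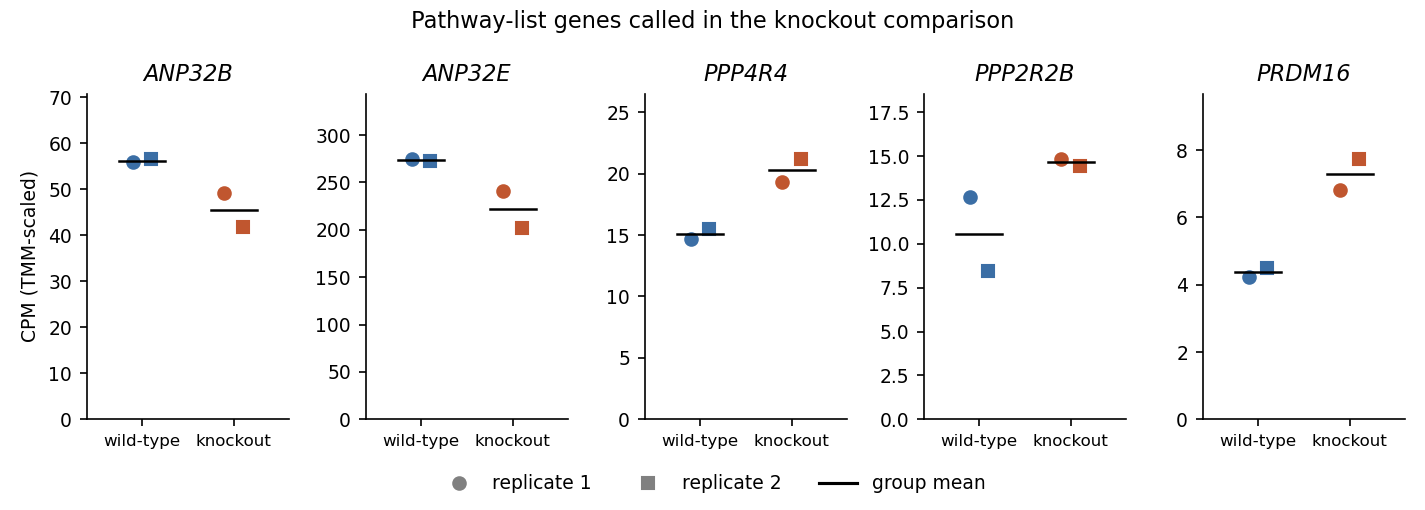
CPM (vertical axes, each from 0) of the 5 pathway-list genes called by edgeR, in the 4 RNA-seq libraries; circles are replicate 1, squares replicate 2 and bars group means. No gene has overlapping groups, and knockout replicate 2 is the lowest library for ANP32B and ANP32E and the highest for PPP4R4 and PRDM16.

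The other 6 lists, with 36 tested genes, are grouped here because edgeR called 0 of their genes, so that 0 follows from the grouping. DESeq2 called 0 of the 36, against 2.85% of all tested genes. At an unadjusted p under 0.05 there were 6, against 16.7% of all tested genes. The lists cover PP2A assembly and methylation (5 genes), other PP2A inhibitors (7) and the SET complex of nuclear DNA repair factors (4). The rest are the STRIPAK complexes built on striatins (12), reported SETBP1 targets (4) and reported SETBP1 partners (4). In the assembly list the genes of smallest p were the methylesterase gene PPME1 (0.09 ± 0.08) and the methyltransferase gene LCMT1 (-0.10 ± 0.10). In the inhibitor list they were the kinase gene MASTL (-0.10 ± 0.08) and its substrate gene ENSA, and CIP2A (KIAA1524 in the files) was at 0.05 ± 0.09. In the SET complex list HMGB2 (0.14 ± 0.06, adjusted p = 0.164) passed with the date as a block (blocked adjusted p = 0.0364), and NME1 (0.13 ± 0.07) passed without knockout replicate 1 (0.23, adjusted p = 0.0228) but stood at 0.03 without knockout replicate 2 (adjusted p = 0.941). APEX1, chosen after its values were seen, was lower without knockout replicate 1 (-0.38, adjusted p = 7.99e-06) and at 0.02 without knockout replicate 2. In STRIPAK the smallest p belonged to STK25 (0.14 ± 0.06) and CTTNBP2 (0.19 ± 0.09).

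Of 4 genes reported to respond to SETBP1, edgeR called 0, against 6.56% of all tested genes. MYB, a haematopoietic transcription factor gene, was at 15.6 and 18.3 CPM in wild-type and 14.1 and 11.8 CPM in knockout. The groups did not overlap, and the log2 fold change was -0.39 ± 0.13 (adjusted p = 0.0560). It passed with the date as a block (blocked adjusted p = 0.0326), with library size scaling (adjusted p = 0.0427), without knockout replicate 1 (adjusted p = 0.0152) and without wild-type replicate 1 (adjusted p = 0.0335). Without knockout replicate 2 it was at -0.27 (adjusted p = 0.513) and without wild-type replicate 2 at -0.27 (adjusted p = 0.550). The within-date values were -0.14 and -0.64. RUNX1, which SETBP1 has been reported to repress, was at 3.41 and 4.25 CPM in wild-type and 3.12 and 3.42 CPM in knockout, with overlapping groups (-0.24 ± 0.22, adjusted p = 0.692). HOXA9 (-0.07 ± 0.09) and HOXA10 (-0.03 ± 0.11) were not called either. Among the partners KMT2A was at -0.17 ± 0.07 (adjusted p = 0.215), passing only without knockout replicate 2 (-0.27, adjusted p = 0.0282), and stood at -0.07 without knockout replicate 1 (adjusted p = 0.718). HCFC1, chosen after its values were seen, was higher without knockout replicate 1 (0.23, adjusted p = 0.0127) and at -0.13 without knockout replicate 2 (adjusted p = 0.468). PHF6 was at -0.05 ± 0.06.

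**Figure D4:**
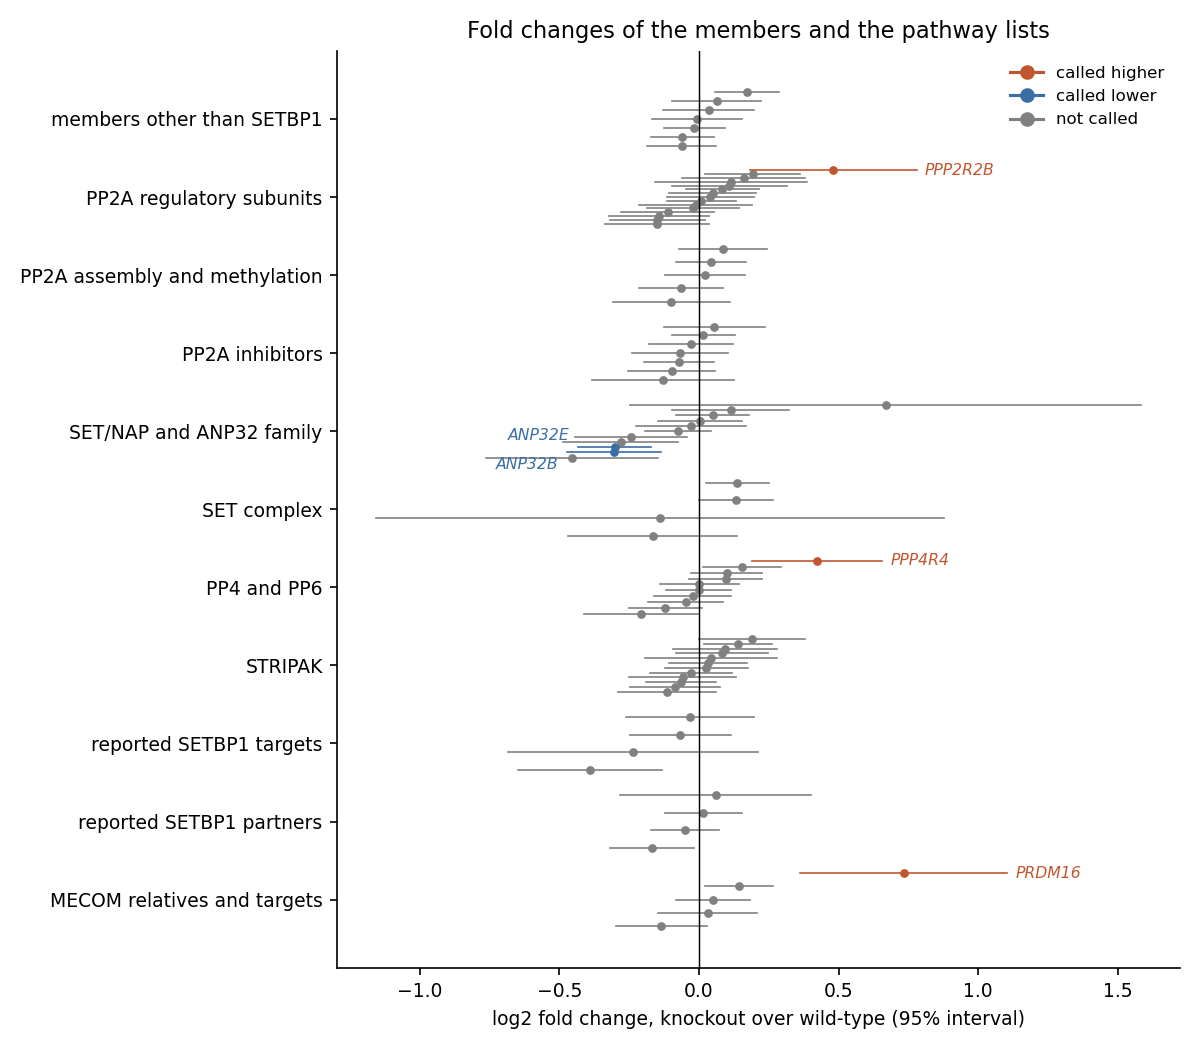
Log2 fold change (knockout over wild-type, horizontal axis) with 95% interval for the 7 members other than SETBP1 and the 77 genes of the 10 pathway lists, 1 line per gene; colours mark called genes. PPP2R2B, PPP4R4 and PRDM16 are called higher, ANP32B and ANP32E lower, and the 7 members are grey.

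Genes around SETBP1 did not share its pattern. Its 10 nearest tested neighbours in the RefSeq table, 5 on each side, reached out to 7851 kb. Of these edgeR called 0 and DESeq2 0, against 6.56% and 2.85% of all tested genes. An unadjusted p under 0.05 (16.7% of all tested genes) was seen for 1, the tubulin polyglutamylase gene TPGS2 (0.20 ± 0.07, adjusted p = 0.0994). TPGS2 passed with the date as a block (blocked adjusted p = 0.0228) and without knockout replicate 1 (0.29, adjusted p = 0.00547), and stood at 0.10 without knockout replicate 2 (adjusted p = 0.742). The nearest were the lipid kinase gene PIK3C3, 2592 kb before SETBP1 (-0.09 ± 0.08), and the autophagy gene EPG5, 732 kb after it (-0.11 ± 0.10). Farther on, PSTPIP2 (0.04 ± 0.09), ATP5A1 (-0.02 ± 0.05), HAUS1 (-0.01 ± 0.07) and C18orf25 (-0.02 ± 0.08) lay after SETBP1, and LINC00669 (0.00 ± 0.18), KIAA1328 (0.19 ± 0.18) and the pseudogene RPL7AP66 (-0.89 ± 0.57) before it. Over the 194 tested genes of chromosome 18 with a position, 8 were higher and 8 lower, or 8.25%, with a median of -0.03. Without SETBP1 itself 8 of 193 were higher and 7 lower, or 7.77%, against 6.56% of all tested genes.

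Around MECOM 1 of 10 neighbours was called, against 6.56% of all tested genes. The cholinesterase gene BCHE, 3246 kb before it, was higher (97 and 194 against 289 and 244 counts, 1.03 ± 0.17, adjusted p = 5.67e-05). DESeq2 also called 1 of the 10 (2.85% of all tested genes), and 3 had an unadjusted p under 0.05 (16.7% of all tested genes). The nearest gene after MECOM, ACTRT3 (-0.20 ± 0.29), and the nearest before it, EGFEM1P (0.04 ± 0.17), were not called. Nor were MYNN (0.07 ± 0.10), GOLIM4 (0.05 ± 0.07), PDCD10 (-0.09 ± 0.08), SERPINI1 (-0.87 ± 0.41), LRRC34 (-0.14 ± 0.12) and SEC62 (-0.03 ± 0.07). LRRC31 (-0.49 ± 0.19, adjusted p = 0.123) passed without knockout replicate 2 (-0.81, adjusted p = 0.0198) and stood at -0.22 without knockout replicate 1 (adjusted p = 0.653).

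**Figure D5:**
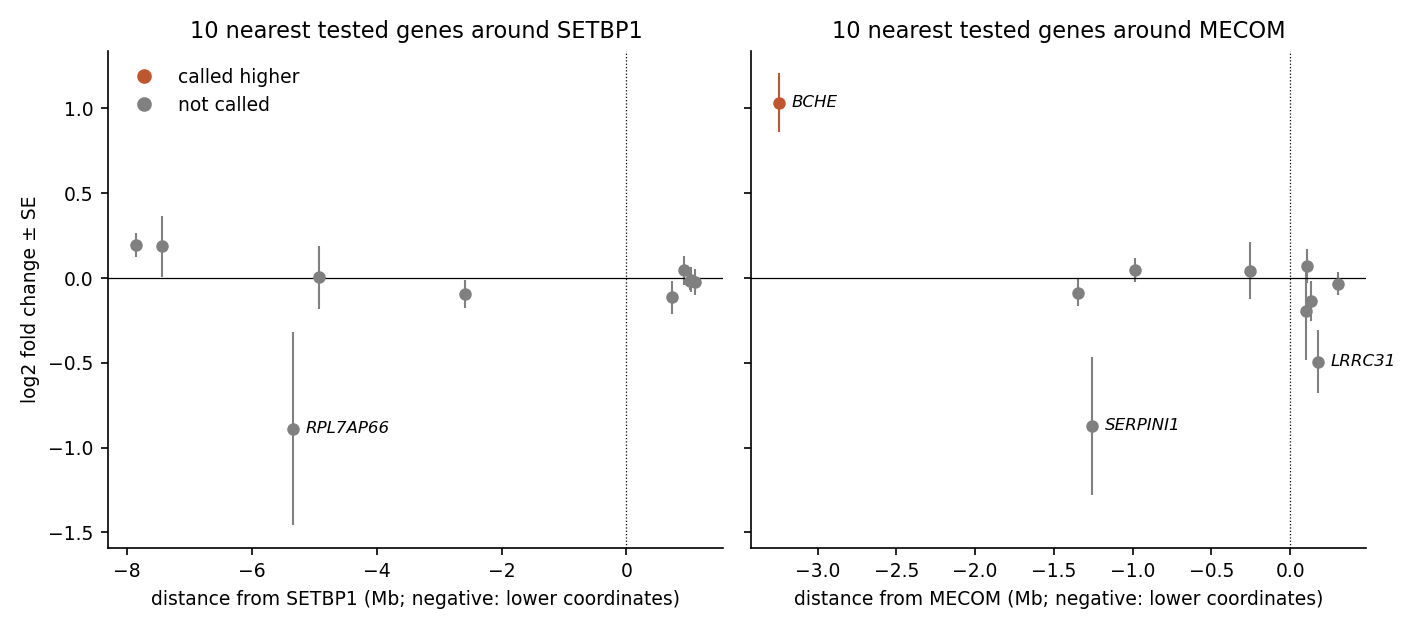
Log2 fold change ± SE (vertical axis) of the 10 nearest tested genes around SETBP1 and around MECOM against distance in Mb (negative for lower coordinates). BCHE is the only called neighbour, and no neighbour of SETBP1 is called.

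The spans of 4 of the 8 genes hold microRNA genes in RefSeq, and these gave few reads in the small RNA libraries, which held 157706 to 346626 microRNA counts. The mature sequence inside SETBP1 is shown with its seed (bases 2 to 8) in capitals, since it is the only other readout at that locus. It lies on the minus strand (chr18:44970140-44970156), opposite to SETBP1.
hsa-miR-4319: uCCCUGAGcaaagccac
The wild-type libraries had 0 and 0 counts and the knockout libraries 0 and 4, where 4 counts are 11.5 CPM (exact Poisson 95% interval 3.14 to 29.5). The same kind of interval for 0 counts reaches up to 15.6 and 13.8 CPM in the wild-type libraries. A difference was therefore not detectable at this depth. Within PPP2CA, miR-3661 had 3 and 3 counts against 0 and 11, within PPP2R1A miR-6801-5p had 1 and 9 against 0 and 0 and miR-6801-3p 0 and 8 against 0 and 0, and within ANP32A miR-4312 had 0 and 13 against 5 and 7. Over these microRNAs single libraries ranged from 0 to 13 counts, and no test was run.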

How the data were processed

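Per the submitters' processing notes, FastQC, cutadapt, STAR, SAMtools, featureCounts, Subread and the build hg38 were used. For these tools the roles, versions, annotation and strand setting were not given in the sources used here. The authors deposited raw counts per gene symbol (stranded total RNA libraries) and per mature microRNA name, with no normalisation. Gene counts went into edgeR 4.0.16 (R 4.3.3): filterByExpr (minimum count 10), TMM, robust quasi-likelihood F test, Benjamini-Hochberg adjustment over 16233 genes, threshold 0.05. SE is the log2 fold change divided by the square root of F. Alternatives were DESeq2 1.42.0, other scaling, no filter, the date as a block and each library left out. The dates pair libraries by their labels, and the deviations of same-date libraries correlated at 0.08. In simulated counts (15909 genes) 82% to 85.1% of 2-fold and 93.6% to 100% of 4-fold changes were recovered. Changes under 2-fold were not simulated. The members other than SETBP1 and the called pathway-list genes all lay under 2-fold, so these rates do not cover them. Positions of 14191 genes and all sequences came from RefSeq (GRCh38.p14), with promoter windows for 7 of the 8 genes.

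The members and lists were chosen with earlier results of these data known. Named are the 8 members, per list up to 4 called genes each way (or the 2 of smallest p), the 5 nearest tested genes on each side of SETBP1 and MECOM, the 5 genes most like SETBP1, BCDIN3D, and the highest marker of each list. Others are mentioned for their role in a list, after their values were seen. MicroRNA counts were not tested. Some genes of the lists are counted but not reported by name here.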

Additional observations from a re-analysis of the deposited data

How the results depend on the processing

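The 7 genes other than SETBP1 kept their side of the threshold in 61 of 63 values over 9 alternatives, and PPP2R1A gave the other 2: it passed with the replicate block on the date (0.17, adjusted p = 0.0107) and without knockout replicate 1, with log2 fold changes of 0.095 to 0.25 when each library was left out. Of these 7 genes 1 was then called higher with the block, and 0 to 1 with a library left out. Over all genes 497 were higher and 568 lower. DESeq2 called 234 higher and 279 lower, the block called 767 higher and 784 lower, library size scaling 374 and 644, and leaving out each library gave 240 to 684 higher and 340 to 705 lower. In the 10 pathway lists, 3 higher and 2 lower became 0 and 1 with DESeq2, 5 and 5 with the block, and 0 to 5 higher and 1 to 5 lower with a library left out. Library size scaling gave 4 lower. Of 153 values for the 17 genes named from the lists, 129 stayed on the same side of the threshold, 17 lost a call, 7 gained one and 0 reversed. All 17 losses were among the 5 genes called by edgeR with all libraries. Most of the 129 are values of uncalled genes that stayed uncalled. The causes were not tested. Fits with 1 library in a group assume that it varies like the other group. Of the genes in the lists and beside SETBP1 and MECOM, the block also added STRN4, NAP1L2, TSPYL2, HMGB2, MYB and TPGS2, and it changed no other call. For SETBP1, 0 counts allow a level of up to 0.0731 CPM over both knockout libraries, taking 3 counts as the limit.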
